A study of Mus musculus with 4 samples.

Results

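The connexin genes Gja1, Gja4, Gja5, Gjb1, Gjb6, Gjc1 and Gjc3 were followed through the glial and vascular cells of the mouse dentate gyrus. They were listed by name, with earlier results of these data known, and make up 7 of the 31557 gene symbols counted. A further 8 connexin genes had an entry in the same table and are given where they bear on these 7.

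Connexins are membrane proteins that assemble into hemichannels. Hemichannels of neighbouring cells dock into gap junctions, through which ions and small metabolites pass from cell to cell. In the brain, Gja1 and Gjb6 encode the main connexins of astrocytes, Gjb1 and Gjc3 are expressed in oligodendrocytes, and Gja1, Gja4, Gja5 and Gjc1 are described in vessel walls.

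All animals were male nestin-GFP mice, which carry a green fluorescent reporter under control of the Nes gene. At 2 months of age, 4 mice received an intracerebroventricular infusion of an antagomir against miR-132 (a cholesterol-modified locked nucleic acid oligonucleotide, 2 µl at 0.33 nmol/ml) and 4 received a scrambled oligonucleotide in the same vehicle, at a dose that no source used here gives. At 3 months, reporter-positive cells of the whole dentate gyrus were sorted, 96 wells per mouse, and read by Smart-seq2, a full-length single-cell RNA-seq method without molecular identifiers that copies polyadenylated RNA. The mature microRNA was therefore not measured, and the knockdown itself has no readout in these data. In this text mice 1, 3, 5 and 7 are the scrambled mice and mice 2, 4, 6 and 8 the antagomir mice. The first sort day took mice 1 to 4, the second day mice 5 to 8. Mice 1, 2, 5 and 6 belonged to project L5 and mice 3, 4, 7 and 8 to L6, so each day and each project held as many antagomir as scrambled mice. No source used here says what a project marks.

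Of 768 wells, 716 had between 500 and 6000 detected genes and were kept, with 4118 to 1640971 counts per cell (median 650777) and 43996495 to 69191485 counts per mouse. Clustering without the connexin and pannexin genes, with names from 12 listed markers per class, gave 301 oligodendrocyte-like, 170 radial glia-like (RGL) or astrocyte-like, 87 endothelial-like and 82 mural-like cells. Detected in at least 25% of a class's cells were 12 of 12 oligodendrocyte, 12 of 12 RGL or astrocyte, 12 of 12 endothelial and 10 of 12 mural markers. Nes, the gene that drives the reporter, had a count in 471 of 716 cells, from 66 of 170 RGL or astrocyte-like to 79 of 82 mural-like cells. All wells had distinct names. In 31 cells, at least 3 markers of more than 1 of the 4 classes had at least 10 counts each. Results that rest on such cells, called cells with markers of more than 1 class, are named below.

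The 6 connexins other than Gja5 divided among the classes by role. Levels are counts per 1000000 counts (CPM), from the counts summed over the cells of a class in a mouse, and 1 class sum, the 3 endothelial-like cells of mouse 7, was left out for holding under 5 cells. Among these 4 classes Gja1 and Gjb6 were highest in RGL or astrocyte-like cells, Gjb1 and Gjc3 in oligodendrocyte-like cells, and Gja4 and Gjc1 in mural-like cells, while Gja1 and Gjc1 were next highest in endothelial-like cells. In summed counts of the smaller groups of cells outside these classes, the fibroblast-like cells held more Gjb6 than the RGL or astrocyte-like cells, and both they and an unnamed cluster held more Gja1 than the endothelial-like cells, as given below.

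**Figure D1:**
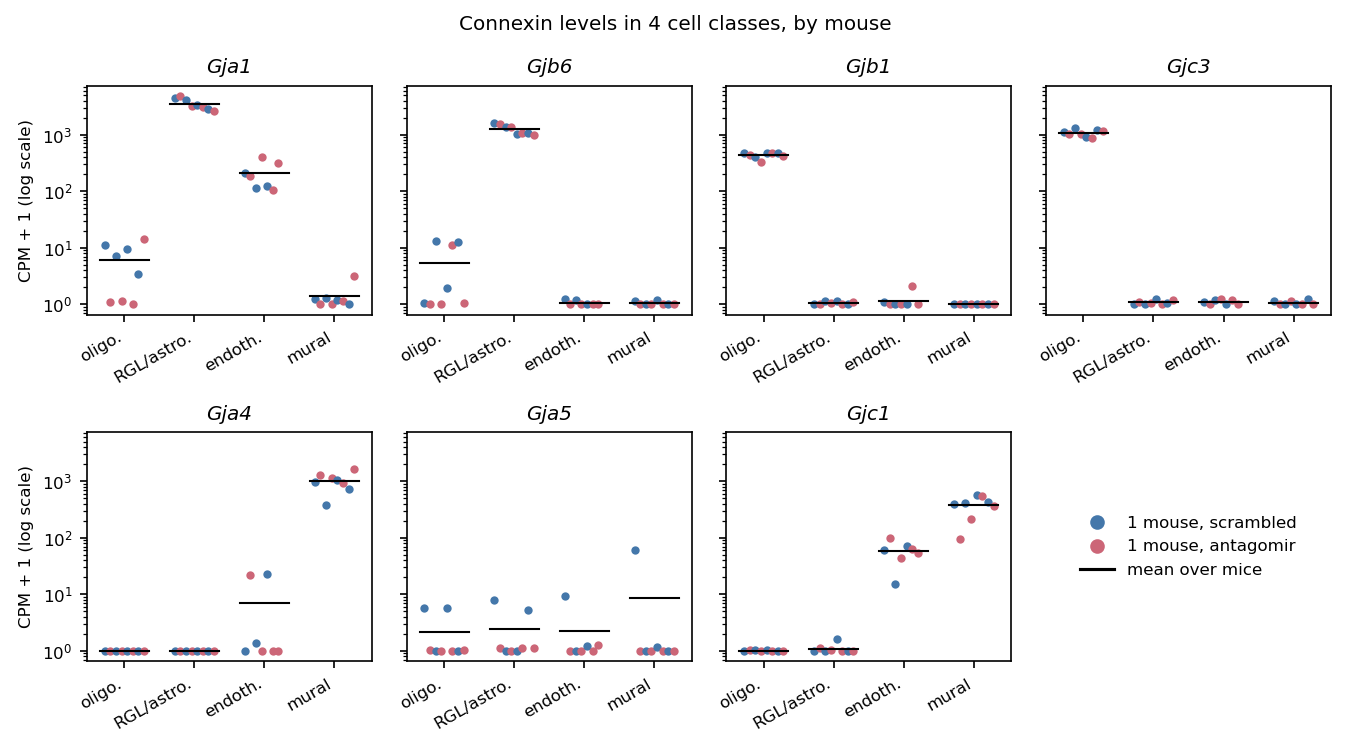
Level of each connexin gene in each class on a log axis of CPM + 1, with 1 point per mouse coloured by treatment and a line at the mean. The highest class of each gene other than Gja5 lies above its other classes in every mouse with sums in both, except for Gjc1 in 1 of 7 mice between mural-like and endothelial-like cells, for example Gja1 at 2624 to 4757 CPM in RGL or astrocyte-like cells.

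Classes were compared in 1 edgeR quasi-likelihood fit of the 31 class-by-mouse sums, with the mouse as a block and Benjamini-Hochberg adjustment over 12097 genes. The classes were drawn from the other genes of the same cells, so that many genes differ between them by construction. Gja5 did not pass the filter on low counts, and 6 members were tested. Of the 6, 4 differed between RGL or astrocyte-like and oligodendrocyte-like cells at an adjusted p under 0.05, beside 17.1% of all genes: 2 were higher in oligodendrocyte-like cells (7.77% of genes) and 2 in RGL or astrocyte-like cells (9.33%). Between oligodendrocyte-like and endothelial-like cells all 6 passed (25.4% of genes), 3 higher in oligodendrocyte-like (17.8%) and 3 in endothelial-like cells (7.57%). Between oligodendrocyte-like and mural-like cells all 6 passed (26.0%), 4 higher in oligodendrocyte-like (18.9%) and 2 in mural-like cells (7.18%). Between RGL or astrocyte-like and endothelial-like cells 4 passed (23.8%), 2 higher in RGL or astrocyte-like (17.5%) and 2 in endothelial-like cells (6.27%). Between RGL or astrocyte-like and mural-like cells 4 passed (21.4%), 2 higher in RGL or astrocyte-like (16.2%) and 2 in mural-like cells (5.25%). Between endothelial-like and mural-like cells 3 passed (10.5%), 1 higher in endothelial-like (5.27%) and 2 in mural-like cells (5.23%). The median log2 difference over all genes was between 0.01 and 1.39 in these 6 comparisons and moved by up to 0.38 with DESeq2's size factors in place of TMM. Within the single projects, each with 4 mice, the 27 member differences called kept their direction in 54 of 54 refits and their call in 42.

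Gja1 (chr10:56377330-56402513, plus strand, GENCODE M21 on GRCm38, as for the genes below) encodes the main gap junction protein of astrocytes. In RGL or astrocyte-like cells its level was 4525, 4136, 3355 and 2836 CPM in scrambled mice 1, 3, 5 and 7 and 4757, 3158, 3110 and 2624 CPM in antagomir mice 2, 4, 6 and 8 (3563 ± 802 CPM, SD, n = 8). Each treatment had both high and low mice. A count was found in 160 of 170 cells, and these cells held 90.6% of all Gja1 counts of the 716 cells. The summed level was 624 times that of oligodendrocyte-like cells, 18.2 times that of endothelial-like cells and 13471 times that of mural-like cells. The log2 differences in edgeR's quasi-likelihood test were 10.09 ± 1.12 (SE, adjusted p = 2.8e-07), 4.71 ± 0.94 (adjusted p = 4.7e-04) and 14.66 ± 1.31 (adjusted p = 5.4e-09).

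Gjb6 (chr14:57123303-57133611, minus strand) encodes the other main astrocytic connexin. Its level in RGL or astrocyte-like cells was 1593, 1359, 1045 and 1078 CPM in scrambled mice 1, 3, 5 and 7 and 1547, 1371, 1051 and 994 CPM in antagomir mice 2, 4, 6 and 8 (1255 ± 242 CPM, SD, n = 8). The 4 mice of the first sort day were all above the 4 mice of the second, at 1468 ± 120 against 1042 ± 35.03 CPM (SD, n = 4 each), a split noticed after the values were seen and not tested. For Gja1 the days gave 4144 ± 706 and 2981 ± 319 CPM, and mouse 4 of the first day lay within the range of the second. In the deposited well table the sort day coincides with the day of the Smart-seq2 reaction.

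Gjb6 was detected in 139 of 170 RGL or astrocyte-like cells. In the vascular classes it had 4 counts in all 87 endothelial-like cells and 2 counts in all 82 mural-like cells. The ratio of RGL or astrocyte-like to mural-like cells was 27148, with a counting interval of 7515 to 224167. The log2 differences were 9.83 ± 1.47 over oligodendrocyte-like (adjusted p = 1.9e-05), 14.97 ± 1.79 over endothelial-like (adjusted p = 6.2e-07) and 15.78 ± 1.75 over mural-like cells (adjusted p = 1.7e-07) in edgeR's quasi-likelihood test. Per kilobase of the longest coding transcript, Gja1 averaged 1120 ± 252 and Gjb6 596 ± 115 CPM per kb (SD, n = 8), with Gja1 higher in 8 of 8 mice. Per kilobase of all annotated exons the order was the reverse in 8 of 8 mice, at 347 and 469 CPM per kb, so the order of the 2 genes depends on the length used.

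The levels in oligodendrocyte-like cells came from few cells. Gja1 averaged 5.13 CPM there, with a count in 18 of 301 cells, and 8 cells with at least 10 counts held 99.1% of those counts. Of these 8 cells, 4 also held markers of more than 1 class. For Gjb6 the mean was 4.37 CPM, with a count in 13 of 301 cells, 6 of them with at least 10 counts and 2 of those with markers of more than 1 class. Gja1 and Gjb6 were nonetheless higher in oligodendrocyte-like than in mural-like cells (log2 4.57 ± 0.95, adjusted p = 6.5e-04, and 5.95 ± 1.54, adjusted p = 0.0048, edgeR). Gjb6 was higher than in endothelial-like cells (log2 5.14 ± 1.59, edgeR adjusted p = 0.0173), and this call was lost without the cells holding markers of more than 1 class (adjusted p = 0.0754), without mouse 3 (0.0945) or without mouse 6 (0.0972). The part of RNA from other cells in these low levels was not tested.

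**Figure D2:**
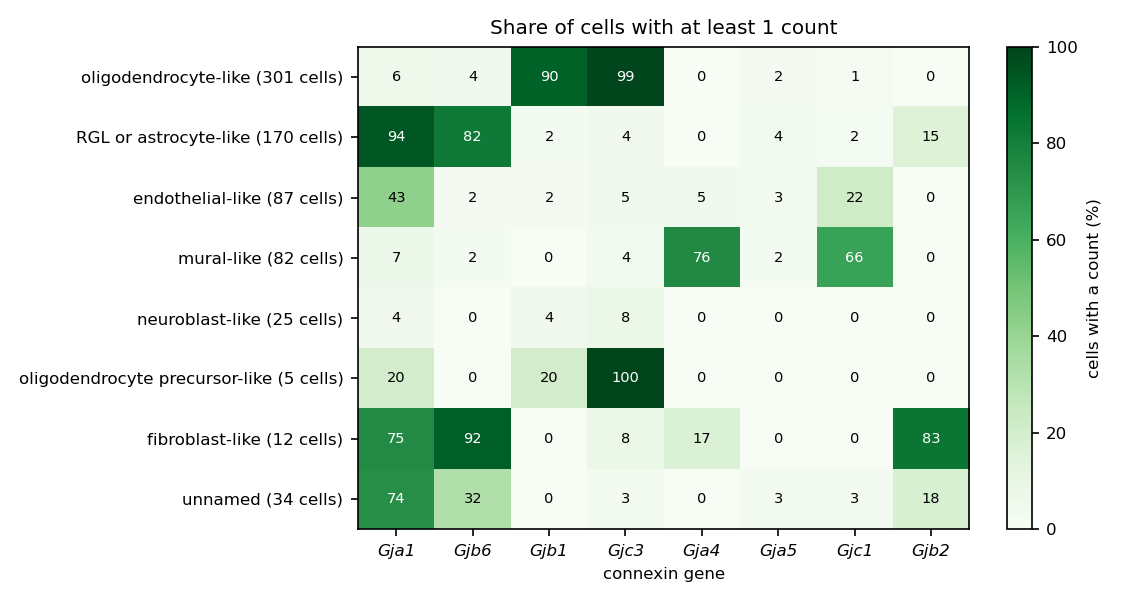
Share of the cells of each class (rows of the grid) with at least 1 count of each connexin (columns), in percent, printed in each field and shown by the shade, for the 7 genes and for Gjb2. Shares were high for Gjc3, in 299 of 301 oligodendrocyte-like cells, for Gja1, in 160 of 170 RGL or astrocyte-like cells, and for Gjb6, in 139 of these and in 11 of 12 fibroblast-like cells.

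Most RGL or astrocyte-like cells held Gja1 together with Gjb6. The 2 were detected jointly in 138 of 170 cells (81.2%), where the product of the 2 shares is 77.0%. The joint share was above the product in 4 of 8 mice, and in 3 of 8 after thinning. Gja1 alone was found in 22 cells, Gjb6 alone in 1 and neither in 9. The cells with both had a median of 598634 counts and those with neither 229503, and after thinning every cell to 200000 counts, 125 of 150 cells kept both. Gjb2, which encodes another connexin described in astrocytes and in the meninges, had a count in 26 of the 170 cells, and all 26 also had Gja1 and Gjb6.

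Within the class the connexins were not evenly spread. The larger of its 2 clusters, of 136 cells, had Gja1 in 133 cells at 3756 CPM and Gjb6 in 127 cells at 1396 CPM. The smaller, of 34 cells, was shallower, with medians of 800 genes and 311326 counts per cell, and had Gja1 in 27 cells at 1315 CPM and Gjb6 in 12 cells at 351 CPM. A cluster that stayed unnamed, also of 34 cells and led by Frzb, Slc38a1, Ccnd2 and Hmgb2, had Nes in 34 of 34 cells, Gja1 in 25 cells at 745 CPM and Gjb6 in 11 cells at 186 CPM. By mouse, Gja1 averaged 656 ± 537 CPM in the unnamed cluster against 3873 ± 709 CPM in the larger astroglial cluster (SD, n = 8), and Gjb6 202 ± 222 against 1378 ± 250 CPM. Both were lower in the unnamed cluster in 8 of 8 mice, a description without a test since these clusters came from the same cells.

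Nes marks radial glia-like cells among astroglia, and 66 of the 170 cells had a Nes count. Gja1 averaged 3381 ± 764 CPM in cells with and 3703 ± 931 CPM in cells without Nes (SD, n = 8). The log2 difference was -0.14 ± 0.10 (SE, 95% interval -0.36 to 0.08, edgeR adjusted p = 1.0). Gjb6 averaged 1241 ± 275 and 1293 ± 483 CPM, a log2 difference of -0.02 ± 0.21 (SE, 95% interval -0.47 to 0.44, edgeR adjusted p = 1.0). Neither passed the test, and 0 of 7652 genes (0%) did in edgeR, with 159 genes at an unadjusted p under 0.05. Thinned to equal depth, Gja1 was at 3262 and 3372 CPM and Gjb6 at 1207 and 1199 CPM in cells with and without Nes. The unnamed cluster was outside this split, although its 34 cells all held Nes, at 204 CPM against 22.99 CPM in the class. By markers per cell, 27 of the 34 were RGL or astrocyte-like. The class marker Gfap averaged 941 ± 571 CPM with and 806 ± 237 CPM without Nes (SD, n = 8). Hopx, also a class marker, averaged 42.4 ± 27.96 and 36.2 ± 20.45 CPM. The split is thus not shown to isolate radial glia-like cells, whose connexin levels as such were not tested.

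Gjb1 (chrX:101376378-101385629, plus strand) and Gjc3 (chr5:137953461-137963098, minus strand) encode connexins of myelinating glia. Gjb1 is the gene mutated in X-linked Charcot-Marie-Tooth disease. Gjb1 in oligodendrocyte-like cells was 467, 402, 467 and 479 CPM in scrambled mice 1, 3, 5 and 7 and 433, 329, 483 and 421 CPM in antagomir mice 2, 4, 6 and 8 (435 ± 51.7 CPM, SD, n = 8). Mice 3 and 4, both of the first day and of project L6, were the lowest of their treatments. A count was found in 272 of 301 cells. In the other classes Gjb1 was at trace counts, with 4 counts in RGL or astrocyte-like and 7 in endothelial-like cells, and 0 of 82 mural-like cells, which allows a share of up to 3.66%. The level was at least 6271-fold higher in oligodendrocyte-like than in mural-like cells. The log2 differences were 13.14 ± 1.25 over RGL or astrocyte-like (adjusted p = 3.1e-07) and 12.74 ± 1.33 over endothelial-like cells (adjusted p = 6.0e-07) in edgeR's quasi-likelihood test.

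Gjc3 in oligodendrocyte-like cells was 1122, 1320, 903 and 1214 CPM in scrambled mice 1, 3, 5 and 7 and 1032, 1026, 884 and 1150 CPM in antagomir mice 2, 4, 6 and 8 (1081 ± 150 CPM, SD, n = 8). Mice 5 and 6, sorted on the second day and of project L5, were the lowest of their treatments. It was found in 299 of 301 cells. The log2 differences over RGL or astrocyte-like, endothelial-like and mural-like cells were 13.76 ± 0.99, 13.83 ± 1.06 and 14.43 ± 1.02, with adjusted p of 1.5e-10, 2.3e-10 and 3.6e-11 in edgeR's quasi-likelihood test. In the 5 oligodendrocyte precursor-like cells Gjc3 had a count in 5 and Gjb1 in 1, at 738 CPM for Gjc3.

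All 272 cells with Gjb1 also had Gjc3, and 27 further cells had Gjc3 alone. With Gjc3 in 299 of 301 cells little else was possible. Both were found in 90.4% of cells, where the product of the 2 shares is 89.8%, and exceeded the product in 2 of 8 mice. Per kilobase of the longest coding transcript the 2 genes were at almost the same level, 275 ± 32.6 for Gjb1 and 270 ± 37.4 CPM per kb for Gjc3 (SD, n = 8), with Gjc3 higher in 4 of 8 mice. Across the 3 oligodendrocyte-like clusters Gjb1 was at 418, 489 and 414 CPM and Gjc3 at 1124, 1120 and 1102 CPM.

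Since Gjb1 and Gjc3 shared 1 class, their promoters are shown here, 120 bases up to the base before the start that RefSeq lists in build GRCm38.p6. For Gjb1 the most downstream of 4 listed starts was taken (plus strand, chrX:101383612-101383731), the only 1 of the 4 whose window holds a word searched here, and for Gjc3 the single start (minus strand, chr5:137963099-137963218). Capitals mark copies of 2 words that SOX family proteins can bind, ACAAAG and ACAATG, searched on both strands (CTTTGT and CATTGT).
Gjb1: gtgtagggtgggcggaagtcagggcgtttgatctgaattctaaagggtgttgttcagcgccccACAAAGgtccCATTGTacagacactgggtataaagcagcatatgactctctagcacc
Gjc3: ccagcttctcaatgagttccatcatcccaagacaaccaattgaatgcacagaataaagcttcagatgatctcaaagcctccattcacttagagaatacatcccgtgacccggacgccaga
In Gjb1 ACAAAG begins 57 and CATTGT 47 bases before the start, and the Gjc3 window holds neither word. Of 32851 RefSeq promoters, 12.3% hold at least 1 of the words in a window of this length and 25.2% within 250 bases before the start (16.5% ACAAAG, 10.7% ACAATG). These are shares of single windows. For Gjb1 4 windows were searched and the 1 with a match is shown, so the shares do not tell how unusual this match is. Within 250 bases ACAAAG also lies 125 bases before the start of Gja5, which is not an oligodendrocyte connexin, and 176 bases before another start of Gjb1. SOX10, a member of this family, is known as a regulator of myelin genes, but these matches are letters in a window and show no binding.

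The gene most like Gjb1 over the 31 class sums, by Pearson correlation of log2(CPM + 1) among 9686 genes, was Fa2h (0.999), which makes hydroxylated myelin lipids, followed by Map6d1 and by Gjc3 itself (both 0.998). The closest to Gjc3 were Ermn, Cldn11 and Fa2h (all 0.999), of which Ermn and Cldn11 served as class markers. Gjb6 was closest to Nkain4 (0.990), Gpr37l1 (0.987) and Aqp4 (0.986), the last a class marker and the water channel of astrocyte endfeet. Gja1 was closest to Ddah1 (0.955), S1pr1 (0.944) and Hspb8 (0.899), which were also present in endothelial-like cells. For example, S1pr1, itself an RGL or astrocyte class marker, was at 4746 CPM in RGL or astrocyte-like and 2851 CPM in endothelial-like cells. Gja1 and Gjb6 correlated with each other at 0.765. Gja4 was closest to Slc6a20a (0.980), Gm13861 (0.979) and Ndufa4l2 (0.978), and Gjc1 to Pear1 (0.984), Rcsd1 (0.982) and Ebf1 (0.966). For Gja5, found in few cells, the highest values were lower, with Noc2l (0.563), Gtpbp3 (0.560) and D2Bwg1423e (0.540). Spearman correlations were lower for all of these pairs, for example 0.689 for Gjc3 with Fa2h, 0.754 for Gjb1 with Gjc3 and 0.636 for Gja1 with Gjb6. The points share mice, libraries and class sums, so these are descriptions.

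Gja4 (chr4:127311421-127314039, minus strand), described in arterial endothelium and in mural cells, was the leading connexin of mural-like cells (pericytes and smooth muscle). Its level was 950, 374, 1062 and 733 CPM in scrambled mice 1, 3, 5 and 7 and 1262, 1141, 934 and 1639 CPM in antagomir mice 2, 4, 6 and 8 (1012 ± 372 CPM, SD, n = 8). The treatments overlapped, with scrambled mouse 3 lowest and antagomir mouse 8 highest. A count was found in 62 of 82 cells, against 0 of 301 oligodendrocyte-like cells (a share of up to 0.997%) and 0 of 170 RGL or astrocyte-like cells (up to 1.76%). The level was at least 75003-fold and at least 29116-fold higher than in those 2 classes.

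In endothelial-like cells Gja4 was found in 4 of 87 cells, and 241 of its 347 counts lay in 1 cell. The mural-like level was 133 times the endothelial-like level (log2 10.09 ± 1.77, edgeR adjusted p = 0.0022). This call was lost within project L5 (edgeR adjusted p = 0.111). Gja4 was also at least 566-fold higher in endothelial-like than in oligodendrocyte-like cells (edgeR adjusted p = 0.0101) and at least 220-fold higher than in RGL or astrocyte-like cells (edgeR adjusted p = 0.0228). Both calls were lost within either project, and the second also without mouse 2 (edgeR adjusted p = 0.064), which held 70.3% of the endothelial-like counts, and without mouse 5 (0.058).

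Gjc1 (chr11:102799579-102819700, minus strand) encodes a connexin of smooth muscle and pericytes. In mural-like cells it was at 395, 407, 569 and 428 CPM in scrambled mice 1, 3, 5 and 7 and at 94.1, 217, 557 and 368 CPM in antagomir mice 2, 4, 6 and 8 (379 ± 160 CPM, SD, n = 8). Mice 2 and 4 were the lowest, and mice 6 and 8 lay among or next to the scrambled mice. Against the scrambled mouse of the same day and project, the antagomir mouse was lower in 4 of 4 sets. A count was found in 54 of 82 cells. In endothelial-like cells it was at 60.5, 14.1 and 69.8 CPM in scrambled mice 1, 3 and 5 and at 98.2, 43.8, 63.2 and 52.3 CPM in antagomir mice 2, 4, 6 and 8 (57.4 ± 25.7 CPM, SD, n = 7), with a count in 19 of 87 cells. The 3 cells of mouse 7 held no count.

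Gjc1 was higher in mural-like than in oligodendrocyte-like (log2 13.80 ± 1.19, adjusted p = 1.7e-09), RGL or astrocyte-like (log2 12.19 ± 1.15, adjusted p = 1.3e-08) and endothelial-like cells (log2 2.80 ± 0.82, adjusted p = 0.0259, edgeR), the last a 6.44-fold ratio of summed levels. The difference from endothelial-like cells kept its direction but lost the call without a filter on low counts (adjusted p = 0.119), with every cell thinned to 200000 counts (0.119), with coarser clusters (0.0568) and without mouse 1, 3, 4 or 6. Gjc1 in endothelial-like cells was itself above oligodendrocyte-like (log2 11.002 ± 1.10, adjusted p = 2.4e-08) and RGL or astrocyte-like cells (log2 9.39 ± 1.06, adjusted p = 2.5e-07, edgeR). All 19 endothelial-like cells with Gjc1 had Cldn5, a tight junction gene of endothelium and itself a class marker. Of these cells 0 had the pericyte genes Kcnj8 or Abcc9 (a share of up to 15.8%) and 1 had Pdgfrb. Kcnj8 and Abcc9 were rare in the class, in 1 and 2 of the 37 cells with Gja1 and 1 and 1 of the 50 without. Their absence from 19 cells therefore says little, and RNA from mural cells was not tested as a source.

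Gja4 and Gjc1 were found together in 44 of 82 mural-like cells (53.7%, with a product of shares of 49.8%). The joint share was above the product in 5 of 8 mice. Gja4 alone was found in 18 cells, Gjc1 alone in 10 and neither in 10. Per kilobase of the longest coding transcript Gja4 was at 601 ± 221 and Gjc1 at 164 ± 69.1 CPM per kb (SD, n = 8), with Gja4 higher in 8 of 8 mice by either length. The 2 mural-like clusters, of 74 cells and of 8 cells led by the smooth muscle genes Acta2 and Myh11, had Gja4 at 934 and 1060 CPM and Gjc1 at 391 and 423 CPM.

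Gja1 in endothelial-like cells was at 208, 112 and 121 CPM in scrambled mice 1, 3 and 5 and 187, 397, 105 and 318 CPM in antagomir mice 2, 4, 6 and 8 (207 ± 112 CPM, SD, n = 7). Antagomir mice 4 and 8 of project L6 were the highest, while mice 2 and 6 of project L5 lay within or below the scrambled range. It was higher than in oligodendrocyte-like (log2 5.38 ± 0.97, adjusted p = 1.4e-04) and mural-like cells (log2 9.95 ± 1.15, adjusted p = 7.3e-07, edgeR's quasi-likelihood test), with ratios of summed levels of 34.3 and 741.

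The 37 endothelial-like cells with Gja1 were 42.5% of the class, and 29 of them had at least 10 counts. All 37 had Cldn5, an endothelial class marker, as did 49 of the 50 cells without Gja1. Aqp4 and Gfap, defining genes of astroglia, were in 0 of the 37 (a share of up to 8.11%) and in 1 and 2 of the 50. Gjb6 was in 2 of the 37 and 0 of the 50. Of other astroglial genes, Slc1a2 was in 7 of the 37 cells at 23.0 CPM and Slc1a3 in 4 at 72.3 CPM. In the 50 cells without Gja1 these 2 genes were in 2 and 4 cells, at 0.08 and 0.16 CPM. Aldoc was at 0.30 and 0.20 CPM. The mural genes Vtn, Kcnj8, Pdgfrb and Abcc9 had a count in 7, 1, 2 and 2 of the 37 cells with Gja1. In the 50 cells without it they had a count in 8, 1, 3 and 1. Their levels rest on these few cells, at 339, 79.8, 54.6 and 42.4 CPM with Gja1 and 0.91, 0.16, 0.16 and 0.04 CPM without. Rgs5 went the other way, in 6 and 11 cells at 149 and 748 CPM. RNA from other cells was not tested as a source. Of the 29 cells, 1 held markers of more than 1 class. The summed level of the 12 RGL or astrocyte markers in endothelial-like cells ranged from 1297 to 4912 CPM over the mice, of which S1pr1, also an endothelial gene, averaged 2851 CPM. Per kilobase of the longest coding transcript Gja1 was above Gjc1 in 7 of 7 mice, at 65.0 ± 35.3 and 24.8 ± 11.1 CPM per kb (SD), and per kilobase of all exons in 4 of 7.

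Gja5 (chr3:96904693-97077416, plus strand), known from arterial endothelium and the heart, was detected in 19 of 716 cells, and 8 of these had at least 10 counts. Mouse 1 held 720 of its 985 counts, 444 of them in 1 mural-like cell. Over all cells its level was 11.4, 0, 2.44 and 1.07 CPM in scrambled mice 1, 3, 5 and 7 and 0.0302, 0, 0.0227 and 1.23 CPM in antagomir mice 2, 4, 6 and 8. The 19 cells were spread over 7 oligodendrocyte-like, 6 RGL or astrocyte-like, 3 endothelial-like, 2 mural-like and 1 unnamed cell. None of the 3 endothelial-like cells with Gja5 was among the 4 with Gja4. The gene overlaps Gpr89 and 2 antisense genes on the opposite strand, and no source used here says whether counting used the strand.

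**Figure D3:**
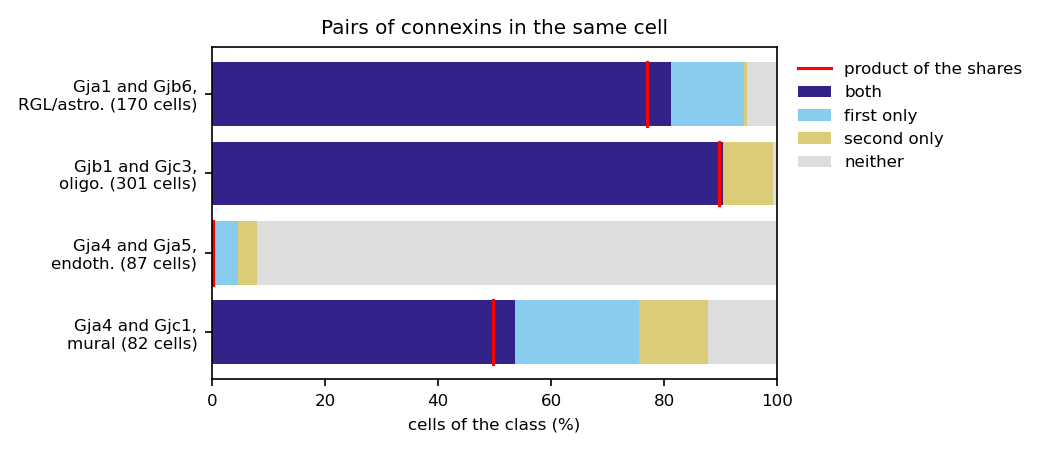
Cells of each class by which of 2 connexins had a count, as a share of the class in percent, with a red line at the product of the 2 shares. Gjb1 was never found without Gjc3 in oligodendrocyte-like cells, of which 299 of 301 had Gjc3. Gja1 and Gjb6 were found together in 138 of 170 RGL or astrocyte-like cells.

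At least 1 of the 7 connexins was found in all but 2 of 301 oligodendrocyte-like, 8 of 170 RGL or astrocyte-like, 9 of 82 mural-like and 36 of 87 endothelial-like cells. Outside the 4 classes, the 12 fibroblast-like cells, singled out after their values were seen, held the astroglial connexins. Gjb6 had a count in 11 of them (2288 CPM of summed counts, against 1258 CPM in the 170 RGL or astrocyte-like cells), Gja1 in 9 (769 CPM) and Gjb2 in 10 (1064 CPM), with all 3 in 9 cells. Of the astroglial genes, Aqp4, Gfap and Ntsr2 were at 0 of 12 cells, which allows a share of up to 25%. Slc1a2 had a count in 3 cells at 0.36 CPM, and Slc1a3, shared between astroglia and other cells, was in 11 at 1694 CPM. Gja4 had a count in 2 of the 12 cells, at 208 CPM, against 7.12 CPM in summed counts of the endothelial-like cells. These cells came from 7 mice, and Gjb6 was found in 6 of the 7, at 381 to 3552 CPM.

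The antagomir comparison asks whether lowering miR-132 changed connexin expression. The mature miR-132-3p of RefSeq (plus strand, chr11:75173723-75173744, GRCm38.p6) is shown with its seed, bases 2 to 8, in capitals, followed by the only match of 7 or 8 bases to this seed in the longest annotated 3′ UTR of the 7 members (GENCODE M21). It lies at base 2514 of the Gjc3 UTR, in capitals, and is of the kind that pairs with bases 2 to 7 and ends on an A.
miR-132-3p: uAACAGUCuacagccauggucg
Gjc3: aagaaaaatttACTGTTAatctagaggcc
A match in 1 of 7 members compares with 17.8% of 21025 protein-coding genes.

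No connexin passed edgeR's quasi-likelihood test between antagomir and scrambled mice, and the mice of both treatments overlapped for each of the 6 genes in its classes. Over all kept cells 7 members were tested, in oligodendrocyte-like cells 4, and in each of the other 3 classes 2, and 0 passed, as did 0 (0%) of the 15447, 10778, 10085, 7720 and 6788 genes tested in all cells, oligodendrocyte-like, RGL or astrocyte-like, endothelial-like and mural-like cells. At an unadjusted p under 0.05 there were 0 members in each, beside 280, 212, 160, 163 and 61 genes. DESeq2 called 0 members and 10, 13, 8, 66 and 22 genes, and limma on the mean log2(CPM + 1) of the cells called 0 members and 0 genes.

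For Gja4 in mural-like cells the means were 1244 ± 296 CPM with antagomir and 780 ± 303 CPM with scrambled (SD, n = 4 each), a log2 difference of 0.63 ± 0.43 (SE, 95% interval -0.30 to 1.55, edgeR adjusted p = 0.9997). The difference was 0.06 within project L5 and 1.40 within L6, and 0.71 and 0.55 on the first and second sort day. In limma on the mean log2(CPM + 1) of the cells, Gja4 had the largest difference of the members, 2.95, with an unadjusted p of 0.00727 and no call after adjustment. For Gjc1 in the same cells the log2 difference was -0.53 ± 0.61 (SE, 95% interval -1.86 to 0.79), at -0.57 and -0.48 in the projects and -1.48 and -0.01 on the days.

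The share of mural-like cells with a count was also read by treatment, without a test. Gja4 was found in 35 of 41 antagomir and 27 of 41 scrambled cells, or 83.8 ± 8.81% and 65.5 ± 8.44% by mouse (SD, n = 4 each). Thinned to 200000 counts, which left out 5 antagomir and 3 scrambled cells, the shares were 81.7 ± 22.1% and 58.3 ± 16.7%, so the share of cells and the CPM of Gja4 lay on the same side. Gjc1 was found in 28 and 26 of 41 cells, or 68.8 ± 10.5% and 61.9 ± 9.55%, the opposite side from its lower CPM. Thinned, its shares were 57.7 ± 12.9% and 61.7 ± 8.82%, so their order depended on depth. Within the 4 sets of an antagomir and a scrambled mouse of the same day and project, Gja4 was higher with antagomir in 3 and Gjc1 lower in 4.

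**Figure D4:**
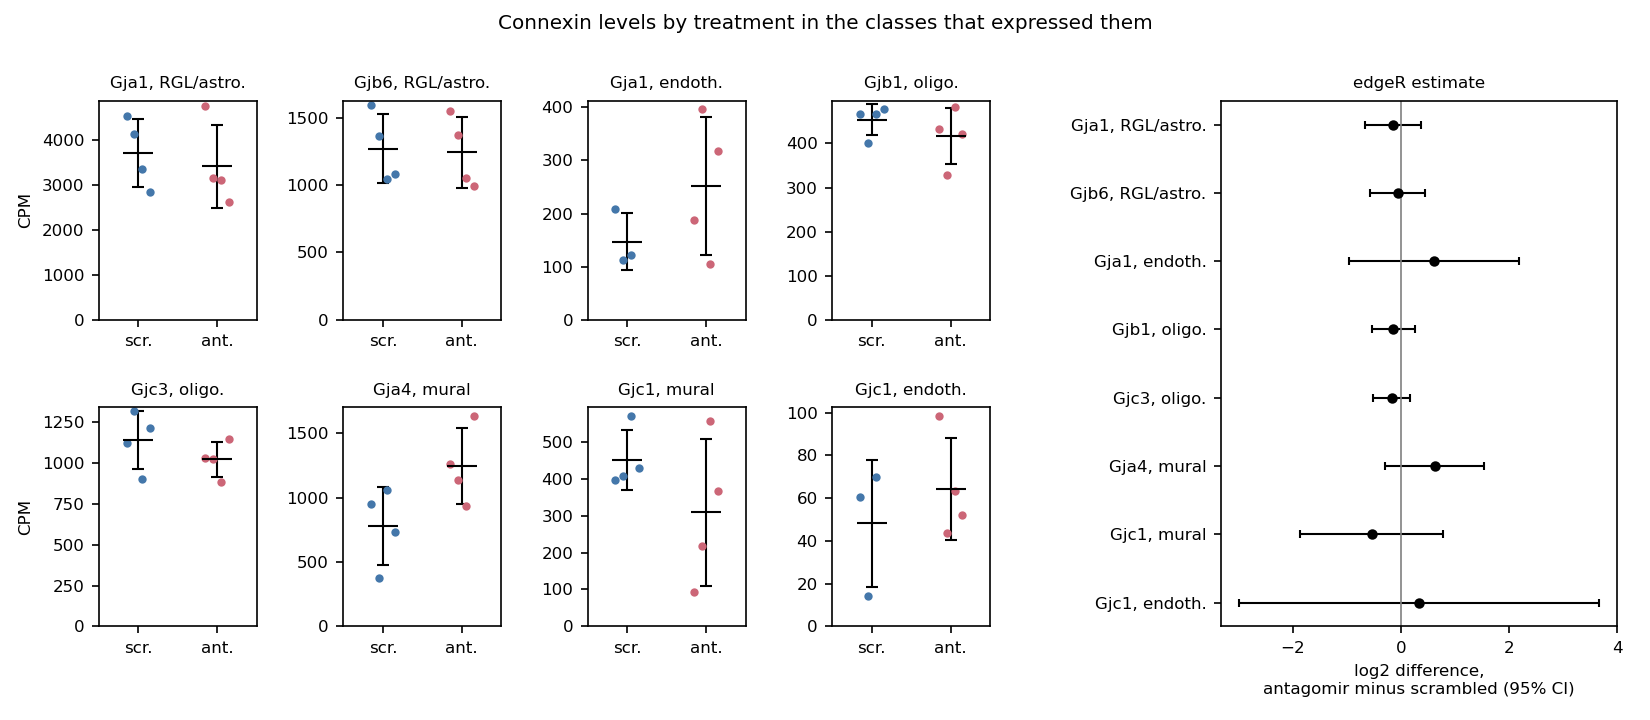
Left, level of each connexin in its class by treatment in CPM, with points for mice and bars for the mean ± SD. Right, log2 difference of antagomir minus scrambled from edgeR with its 95% interval. Every interval includes 0, and in every panel the mice of the 2 treatments overlap.

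Gja1 in RGL or astrocyte-like cells averaged 3412 ± 928 CPM with antagomir and 3713 ± 761 CPM with scrambled (SD, n = 4 each), a log2 difference of -0.14 ± 0.24 (SE, 95% interval -0.66 to 0.37). It was -0.03 and -0.30 within projects L5 and L6 and -0.15 on either day. Gjb6 in the same cells differed by -0.06 ± 0.24 (95% interval -0.57 to 0.46), with -0.05 and -0.08 in the projects and -0.05 and -0.09 on the days. In endothelial-like cells, with 4 antagomir and 3 scrambled mice, Gja1 differed by 0.62 ± 0.72 (95% interval -0.95 to 2.19), at -0.23 within L5 and 1.58 within L6. Gjc1 there differed by 0.34 ± 1.52 (95% interval -2.99 to 3.67), at 0.27 and 1.70 in the projects and 0.83 and -0.34 on the days.

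In oligodendrocyte-like cells Gjb1 averaged 417 ± 64.0 CPM with antagomir and 454 ± 35.1 CPM with scrambled (SD, n = 4 each), a log2 difference of -0.14 ± 0.18 (SE, 95% interval -0.54 to 0.26). The projects gave -0.07 and -0.21 and the days -0.22 and -0.08. Gjc3, the member with the seed match, averaged 1023 ± 109 and 1140 ± 177 CPM, a log2 difference of -0.17 ± 0.16 (SE, 95% interval -0.52 to 0.18), with -0.12 and -0.21 in the projects and -0.28 and -0.07 on the days. Within the 4 sets of the same day and project, the antagomir mouse was lower in 3 for Gjb1 and in 4 for Gjc3, against 3 for Gja1 and 2 for Gjb6 in RGL or astrocyte-like cells. Both genes had differences of the same sign in both projects and on both days, with intervals that include 0.

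Over all kept cells the log2 differences were 0.24 for Gja1, 0.49 for Gjb6, 0.42 for Gja4, -0.31 for Gjc3, -0.29 for Gjb1, -0.33 for Gjc1 and -3.49 ± 2.26 for Gja5, the last resting on mouse 1. The make-up of the sort differed between mice beside them, and its part in these values was not tested. RGL or astrocyte-like cells were 26.6 ± 11.6% of an antagomir and 21.1 ± 7.44% of a scrambled mouse's cells, and oligodendrocyte-like cells 40.1 ± 10.4% and 44.2 ± 7.49% (SD, n = 4 each).

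The difference in antagomir response of RGL or astrocyte-like against oligodendrocyte-like cells was tested for 5 members in 1 edgeR fit, and 0 passed, as did 0 of 13030 genes (0%), with 311 genes at an unadjusted p under 0.05. Gja1 came closest, with a log2 difference of responses of 4.75 ± 1.77 (SE, 95% interval 0.81 to 8.69, adjusted p = 1.0, unadjusted p = 0.0229, edgeR). DESeq2 called this 1 member (adjusted p = 0.0268) among 277 genes. Fitted in each class alone, the antagomir difference of Gja1 was -0.14 ± 0.24 in RGL or astrocyte-like and -1.05 ± 1.80 in oligodendrocyte-like cells (SE, edgeR), which lie much closer together than the joint fit puts them. The value rests on the trace of Gja1 in oligodendrocyte-like cells, which was 10.1, 6.15, 8.58 and 2.51 CPM in scrambled mice 1, 3, 5 and 7 and 0.0900, 0.143, 0 and 13.5 CPM in antagomir mice 2, 4, 6 and 8. The treatments overlapped through mouse 8, without which the difference was 6.29 (edgeR adjusted p = 0.278).

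Related genes were read in 3 lists, of other connexins, of pannexins and other large-pore channels, and of partners and regulators of connexins. For treatment, 0 of their 77 tests over all cells and the 4 classes passed in edgeR, DESeq2 or limma, with 0, 1 and 2 at an unadjusted p under 0.05. Between classes, large-pore channel genes of the volume-regulated anion channel family were higher in oligodendrocyte-like than in RGL or astrocyte-like cells for Lrrc8b (log2 9.12) and Lrrc8d (log2 9.91), 2 of 5 tested, beside 7.77% of all genes. The median over the 5 was -0.48, against 0.23 over all genes. Calhm2, another large-pore channel gene, was lower in oligodendrocyte-like than in endothelial-like (log2 -10.39) and mural-like cells (log2 -11.40).

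Of 13 tested partners and regulators, 5 were lower in oligodendrocyte-like than in RGL or astrocyte-like cells (9.33% of all genes) and 0 higher (7.77%), with a median log2 difference of -0.97 against 0.23 over all genes. The 5 were Mlc1, the astrocyte membrane protein of megalencephalic leukoencephalopathy, Ezr, Dbn1, Cdh2 and Cav1. Against endothelial-like cells 6 were higher in RGL or astrocyte-like cells (17.5% of all genes) and 1 lower (6.27%), with a median of 4.14 against 1.16 over all genes, among them Mlc1 (log2 18.14) and Hepacam (log2 13.58), an adhesion protein that binds Mlc1 and connexins. Hepacam was also higher in oligodendrocyte-like than in endothelial-like (log2 13.27) and mural-like cells (log2 13.76). The scaffold gene Tjp1 was lower in oligodendrocyte-like than in endothelial-like cells (log2 -2.40). Between endothelial-like and mural-like cells 2 were lower in endothelial-like cells, Dbn1 and Cdh2 (5.23% of all genes), and 0 higher (5.27%).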

How the data were processed

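The authors deposited whole-number read counts per gene symbol and well, and a table that gives each well's mouse, treatment, sort day and project. The tools listed by the submitters' processing notes, in no stated order, are Seurat 2.3.1, featureCounts 1.5.1 of Subread, STAR 2.5.2 and FastQC, with genome build mm10. No source used here gives the annotation or the strand setting. The labels list 2 samples per treatment that cannot be tied to mice, so the mouse named in the well table was the replicate.

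Wells with 500 to 6000 detected genes were kept. Cells were clustered with scanpy 1.11.5 and igraph 0.11.9 (2000 variable genes, 20 components, 15 neighbours, Leiden resolution 1) without 18 connexin and pannexin genes. A cluster was named from at least 3 markers of a type, and 34 cells stayed unnamed. No doublet caller was run. The 31 cells with markers of more than 1 class were kept and left out in an alternative. Read counts carry no molecular identifiers, so intervals and limits for a count of 0 (3 counts) cover counting error only, at 95% confidence.

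Counts were summed per mouse and class (at least 5 cells) and tested across all genes with edgeR 4.0.16 in R 4.3.3 (quasi-likelihood, filterByExpr, TMM, Benjamini-Hochberg, threshold 0.05), with DESeq2 1.42.0 and limma 3.58.1 (log2(CPM + 1)) as alternatives; the code was tested on simulated counts. A lower bound on a fold sets the empty class at 3 counts over the class. The members and lists were chosen with earlier results of these data known. All 7 members are named whatever their result; of the lists, genes called, at most 6 a list by smallest p; and for each member the 3 genes most correlated with it over class sums. All 7 members matched GENCODE M21 by symbol, and 6 of 7 the RefSeq promoter table.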

Additional observations from a re-analysis of the deposited data

Results flagged for a closer look

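Of 14 groups of 4 mice checked, 1 held a sample far from the others. Gjb1 in the oligodendrocyte-like cells of scrambled mouse 3 was 401.65 CPM, below the other 3 scrambled mice at 467, 467 and 479 CPM. The gap to the nearest mouse was 0.852 of the range of the group, above Dixon's critical value at 95% confidence for 4 samples. Chance gives such a gap in about 1 in 20 groups.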

How the results depend on the processing

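The number of connexins called for treatment was 0 in every setting run, including DESeq2, limma, no filter on low counts and each mouse left out. Between classes the number called stayed within 1.5 times, except 2 in place of 4 between RGL or astrocyte-like and endothelial-like cells within project L6, and 1 in place of 3 between endothelial-like and mural-like cells within L5, fits with fewer mice. DESeq2 called 1 member in place of 0 for the difference in response (Gja1); the cause was not tested. The sign of a treatment difference, none of them called, turned for Gja1 in RGL or astrocyte-like cells with limma (0.033) and with classes from markers per cell (0.061). It turned for Gjb6 there with limma (0.042), marker classes (0.19) and without cells holding markers of more than 1 class (0.017, chosen after seeing the data). It turned for Gja1 and Gjc1 in endothelial-like cells within L5 (-0.23) and on the second day (-0.34), and for Gjc1 in mural-like cells with limma (0.14). Leaving out 1 mouse gave -0.20 to 0.077 for Gjb6, -0.12 to 0.63 for Gjc1 in endothelial-like cells and -0.13 to 0.16 for Gjb6 by Nes.

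The replicate block tried was the sort day and project, since the labels' numbers cannot be tied to mice. Mice of the same day and project correlated at -0.00284 to 0.147 over genes, and the main fits did not treat them as pairs. That correlation is over all genes and need not hold for single members. Gjb6 in RGL or astrocyte-like cells was close within the sets, at 1547 and 1593, 1371 and 1359, 1051 and 1045, and 994 and 1078 CPM (antagomir and scrambled). The intervals of the main fits thus include differences between days and projects. With the block 0 members were called for treatment, and the log2 differences were -0.16 for Gja1 and -0.06 for Gjb6 in RGL or astrocyte-like, -0.15 for Gjb1 and -0.17 for Gjc3 in oligodendrocyte-like and 0.74 for Gja4 and -0.80 for Gjc1 in mural-like cells. Without the mouse as a block between classes, 4 members in place of 3 were called between endothelial-like and mural-like cells and 2062 in place of 1271 genes. DESeq2 called 4856, 4736, 4927, 4415 and 3351 genes in place of 3075, 3151, 2877, 2592 and 1271 in the comparisons after the first. A fit of only the 2 classes compared called 1601 in place of 2592 genes between RGL or astrocyte-like and mural-like cells and 637 in place of 1271 between endothelial-like and mural-like cells. Within a single project 313 to 1337 genes were called. For treatment, 6 genes in endothelial-like and 4 in mural-like cells were called without a filter on low counts, and in endothelial-like cells 6 within L6 and 4 on the second day, in place of 0. The endothelial-like levels rest on 5 to 19 cells per mouse, which limits their precision.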
